A study of Mus musculus with 12 samples.

Results

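The 36 aminoacyl-tRNA synthetase genes described here were taken by gene symbol from a table of 43271 genes, and all 36 were found and passed the filter on low counts. They comprise 20 genes for the enzymes of the cytosol (of which Gars and Kars also serve mitochondria) and 16 for enzymes made in the nucleus and imported into mitochondria. Aminoacyl-tRNA synthetases join each amino acid to its tRNA, and translation in either compartment depends on them. Several cytosolic enzymes sit together in the multisynthetase complex, held by the scaffold proteins AIMP1, AIMP2 and EEF1E1. Lack of an amino acid leaves tRNA uncharged, which activates the kinase GCN2 (Eif2ak4) and, through phosphorylated eIF2α, the transcription factor ATF4, whose targets include many cytosolic synthetase genes. Wars, which encodes the cytosolic tryptophanyl-tRNA synthetase, is in addition a known interferon γ-induced gene, and interferon γ also induces Ido1, the enzyme that starts tryptophan breakdown.

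Poly(A) RNA was sequenced from MC38CEA cells, a mouse colon adenocarcinoma line that carries human carcinoembryonic antigen, in 12 libraries of 16592831 to 35861103 counted reads. The cells were puromycin-selected pools, not clones, transduced with lentiviral pLKO.1 vectors that encode either a control shRNA (control cells) or 1 shRNA against Adam17 named A17.2 (A17.2 cells). Each was left unstimulated or given human recombinant IL1β and mouse recombinant IFNγ, both at 10 ng/ml, for 6 h. This makes 4 groups with 3 libraries numbered as biological replicates 1 to 3. With 1 shRNA sequence, an effect of lowered Adam17 and any other effect of that sequence or of the pool cannot be told apart. The sources used here name 2 different control vectors.

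Levels are CPM, read counts divided by library size after TMM scaling, and fold changes, standard errors (SE) and Benjamini-Hochberg adjusted p-values come from edgeR's quasi-likelihood test over 15649 genes, with a gene called where the adjusted p was under 0.05. Because libraries that carry the same number moved together (the pairing is described with the methods), a result is also given from a model with the replicate number as a block wherever that changed its call. Unless DESeq2 is named, calls are those of these edgeR models. Adam17 was at 68.4 to 76.4 CPM in unstimulated control cells and at 27.7 to 30.8 CPM in unstimulated A17.2 cells, a log2 difference of -1.32 ± 0.15 (SE, adjusted p = 0.000689). With cytokines it was at 95.5 to 128.6 CPM and 39.5 to 52.3 CPM (-1.28 ± 0.15, adjusted p = 0.00108). The epithelial markers Krt8, Krt18, Krt19, Epcam, Cdh1, Vil1 and Cdx2 were at or near 0 in all 12 libraries, with sums of 0.130 to 0.536 CPM over the 7 genes, although the labels call the line a colon adenocarcinoma. Of 9 markers of other cells, Cd3e was at 0 throughout and Ptprc, Emr1, Itgax, Pecam1 and Cdh5 did not pass 0.353 CPM. Col1a1, Dcn and Pdgfra, genes of mesenchymal cells, were present at 0.937 to 60.0 CPM. The sum over all 9 markers was 40.9 to 57.4 CPM in unstimulated control cells and 36.2 to 46.9 CPM in stimulated control cells. It was 40.6 to 87.1 CPM in unstimulated A17.2 cells and 63.8 to 83.7 CPM in stimulated A17.2 cells. Col1a1 was higher in A17.2 cells (3.19 ± 0.81 on the log2 scale without and 3.40 ± 0.82 with cytokines, adjusted p = 0.0406 and 0.0333), although with the block the call without cytokines was lost (adjusted p = 0.0508). Its part in the differences between A17.2 and control cells was not tested.

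The promoters of 27 of the 36 members are held in the RefSeq table used here (GRCm38.p6, 250 bases before to 50 after the start of the gene), and Wars, Cars, Hars, Lars, Nars, Rars, Vars, Hars2 and Pars2 have no entry. The motif TGATGNAA, written for the composite element that ATF4-containing dimers bind in amino acid response genes, was searched on both strands. It was in 5 of 13 cytosolic members with an entry (Aars, Gars, Iars, Tars and Yars) and in 0 of 14 mitochondrial members, against 3.97% of all 32851 promoters of this length. Those 5 genes had all been listed as amino acid response synthetases, of which 8 have an entry. The match nearest the start of each is shown because it marks the members, among those with an entry, that carry this motif. Capitals mark the match, and each window is read in the direction of the gene, where a match to the other strand appears as its complement.
Aars, chr8:111033841-111033868, plus strand: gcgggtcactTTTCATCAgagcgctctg
Gars, chr6:55037961-55037988, plus strand: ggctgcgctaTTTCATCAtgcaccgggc
Iars, chr13:49682127-49682154, plus strand: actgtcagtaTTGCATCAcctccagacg
Tars, chr15:11399656-11399683, minus strand: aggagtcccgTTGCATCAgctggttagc
Yars, chr4:129189896-129189923, plus strand: cgagctcagcTGATGCAAcccgacggga

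For interferon signalling, the interferon-stimulated response element (GAAA, any 2 bases, GAAA) was searched on both strands, and it was in Qars alone among the 27 members (3.44% of all promoters). The promoters of Kars, Farsa and Yars are given whole, since these cytosolic members differed most clearly after Wars. Capitals mark TGATGNAA in Yars, and neither motif was in the Kars or Farsa window.
Kars, chr8:112011305-112011604, minus strand: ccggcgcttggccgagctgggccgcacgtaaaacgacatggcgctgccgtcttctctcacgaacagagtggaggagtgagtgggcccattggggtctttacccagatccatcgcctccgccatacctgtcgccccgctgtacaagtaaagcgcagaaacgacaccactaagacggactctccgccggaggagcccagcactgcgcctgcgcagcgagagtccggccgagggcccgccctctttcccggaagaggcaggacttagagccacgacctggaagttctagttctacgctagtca
Farsa, chr8:84856736-84857035, plus strand: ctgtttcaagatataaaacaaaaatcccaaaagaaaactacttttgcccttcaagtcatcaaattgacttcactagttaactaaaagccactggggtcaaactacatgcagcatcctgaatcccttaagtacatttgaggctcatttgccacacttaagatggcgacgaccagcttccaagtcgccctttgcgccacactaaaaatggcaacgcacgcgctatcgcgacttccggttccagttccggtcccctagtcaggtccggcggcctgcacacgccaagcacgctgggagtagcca
Yars, chr4:129189653-129189952, plus strand: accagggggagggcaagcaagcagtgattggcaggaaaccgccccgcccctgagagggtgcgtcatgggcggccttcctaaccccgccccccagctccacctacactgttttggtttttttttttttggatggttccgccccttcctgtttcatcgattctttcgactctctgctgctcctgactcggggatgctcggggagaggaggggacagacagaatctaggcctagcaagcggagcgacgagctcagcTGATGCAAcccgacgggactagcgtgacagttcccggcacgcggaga
A match is a string of letters and does not show a bound site.

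Wars was the only member called in all 4 comparisons of groups: it rose with cytokines in control and in A17.2 cells, and it was higher in A17.2 than in control cells both without and with cytokines. Wars (ENSMUSG00000021266.16, chr12:108860030-108894174, minus strand, GRCm38) was at 262, 237 and 328 CPM in the unstimulated control libraries 1 to 3. It was at 914, 743 and 794 CPM in the control libraries given IL1β and IFNγ. For A17.2, it was at 436, 540 and 569 CPM without and at 1278, 1694 and 1462 CPM with cytokines. The 4 groups did not overlap at all, and unstimulated A17.2 cells lay between unstimulated and stimulated control cells.

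The question of the first comparison pair was how the cells responded to the cytokines. In control cells Wars rose 2.96-fold (log2 1.57 ± 0.19, adjusted p = 0.000451), and in A17.2 cells 2.87-fold (log2 1.52 ± 0.19, adjusted p = 0.000375), higher in 3 of 3 numbered pairs each time. The responses differed by -0.05 ± 0.26 on the log2 scale (adjusted p = 1.00, and 0.948 with the replicate block). The test did not separate the responses, which does not show that they were alike. Without the replicate block, Wars was the only member called in either cell line, 1 of 36. Of all tested genes, 3.24% were called in control cells (3.09% higher) and 4.15% in A17.2 cells (3.76% higher). With the block, 6 of 36 members were called in control and 4 of 36 in A17.2 cells, all higher. Of all genes, 19.6% and 17.8% were then called (10.5% and 10.7% higher). The remaining 19 cytosolic members spanned -0.13 to 0.65 in control cells (median 0.14, all genes -0.04) and -0.23 to 0.64 in A17.2 cells (median 0.06, all genes -0.05).

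The comparison of A17.2 with control cells asked how expression differed between them in each state. Wars was 1.87-fold higher in unstimulated A17.2 cells (log2 0.90 ± 0.18, adjusted p = 0.0147) and 1.81-fold higher in stimulated A17.2 cells (log2 0.86 ± 0.18, adjusted p = 0.0202). With the replicate block the adjusted p-values were 0.00012 and 0.000171. When each library was left out in turn, the model without the block kept the call in 3 of 6 fits without cytokines (adjusted p 0.0184 to 0.0696) and in 2 of 6 with cytokines (0.0307 to 0.101). The cytokine response was called in all 6 such fits in each line, with adjusted p of at most 0.00402. In a fit to the 2 groups compared alone, neither A17.2 comparison was called.

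**Figure D1:**
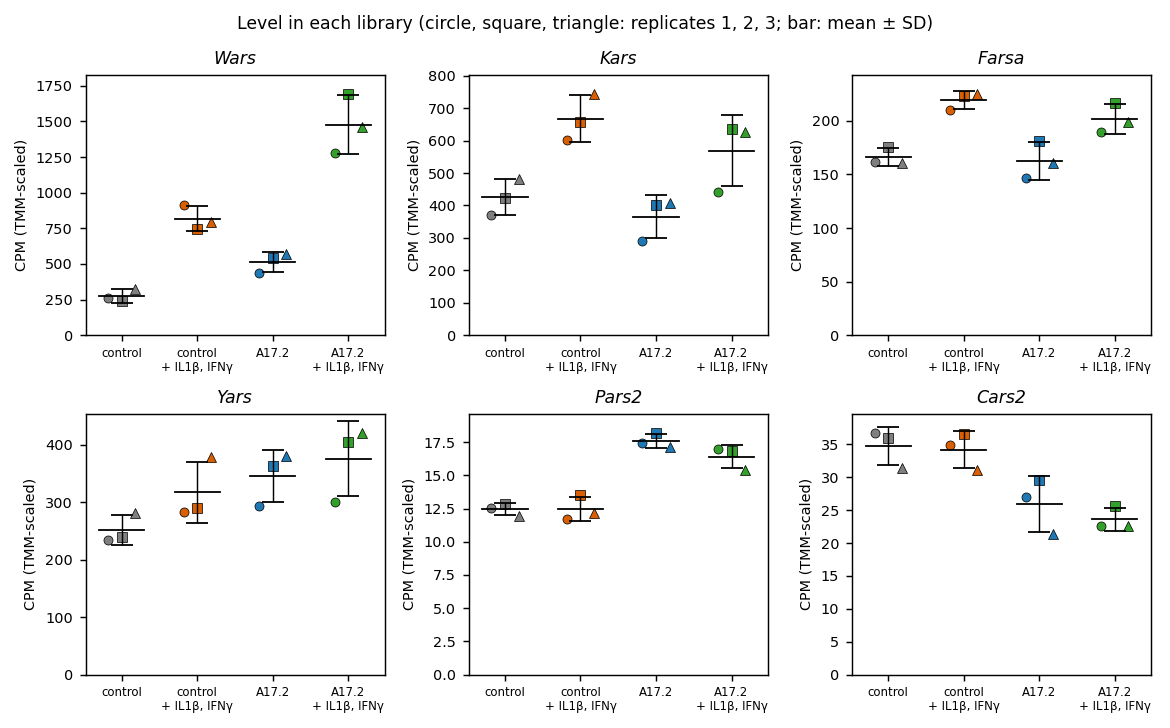
TMM-scaled CPM (vertical axes from 0) of Wars, Kars, Farsa, Yars, Pars2 and Cars2 in the 12 libraries, grouped on the horizontal axis by shRNA and cytokines; symbols are replicates 1, 2 and 3, and bars are the mean and SD of 3 libraries. Wars runs from 237 to 328 CPM in unstimulated control cells up to 1278 to 1694 CPM in stimulated A17.2 cells, with no overlap between groups.

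Within each library the share of Wars among the reads of the 20 cytosolic members needs no scaling between libraries. It was 3.91%, 3.12% and 3.59% in unstimulated control cells and 11.0%, 8.12% and 7.65% after cytokines. In A17.2 cells it was 6.20%, 6.01% and 5.87% without and 16.7%, 15.3% and 13.0% with cytokines. The log2 ratio of Wars to the sum of the 19 others was -4.77 ± 0.17, -3.37 ± 0.31, -3.96 ± 0.04 and -2.51 ± 0.21 (SD, n = 3) in these 4 groups, a rise of 1.40 with cytokines in control cells and of 1.46 in A17.2 cells. The 19 others together took 0.656% to 0.930% of all reads in the 12 libraries.

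Beside other genes known to respond to IFNγ, Wars went the other way in unstimulated A17.2 cells. A list of 11 such genes (Irf1, Gbp2, Gbp3, Igtp, Irgm1, Ifi47, Psmb9, Tap1, B2m, Socs1 and Cxcl10) held 8 called lower (10 with the block) and 0 called higher in unstimulated A17.2 against control cells, with a median log2 difference of -1.59 against -0.01 over all genes. Of all 15649 genes, 538 were called lower without the block, and 17.5% with it. Ifi47, an immunity-related GTPase, had -3.30 ± 0.30 (adjusted p = 0.00028), and Igtp, another, had -1.91 ± 0.23 (adjusted p = 0.000825). Irf1, the transcription factor at the centre of the IFNγ response, was at 138 to 197 CPM in unstimulated control and 48.4 to 66.5 CPM in unstimulated A17.2 cells (-1.59 ± 0.20, adjusted p = 0.000987). With cytokines, none of the 11 was called between A17.2 and control cells (median -0.07). With the block 2 were called lower (19.1% of all genes). The cytokine response of the list was called higher for 10 of 11 in both lines (3.09% and 3.76% of all genes). Its medians were 2.93 in control and 4.37 in A17.2 cells. The block called all 11 higher in both lines, against 10.5% and 10.7% of all genes. With the block, 6 of the 11 had a larger response in A17.2 cells (against 0.307% of all genes called), and 0 of the 36 synthetases were called in that comparison by either model. These comparisons share control libraries, and the list was put together with earlier results of these data known.

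**Figure D2:**
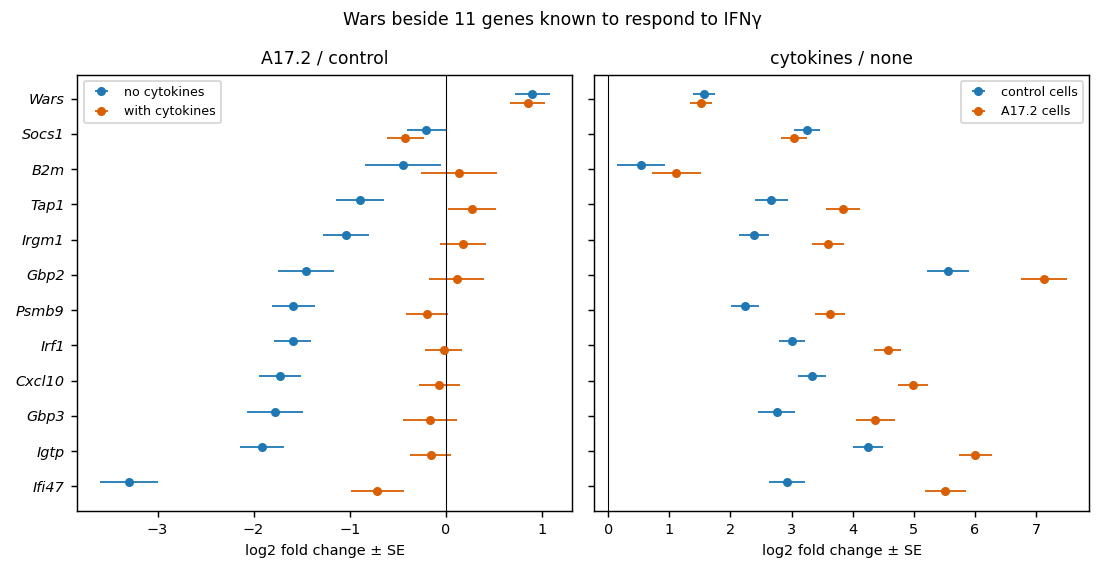
Log2 fold change ± SE (horizontal axes) of Wars and 11 genes known to respond to IFNγ, for A17.2 against control cells without and with cytokines (left) and for the cytokine response of control and A17.2 cells (right). Wars lies at 0.90 and 0.86 in the left panel, where Ifi47 lies at -3.30 without cytokines, and at 1.57 and 1.52 in the right panel.

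Genes of tryptophan breakdown were also called higher under cytokines. Of 9 listed genes of this pathway, 5 had enough reads to be tested, and Ido1, Ido2 and Ccbl2 were called higher with cytokines in both lines. Of all genes, 3.09% in control and 3.76% in A17.2 cells were called higher. Ido1 was at 0.0426 to 0.397 CPM in unstimulated and 2.67 to 16.4 CPM in stimulated control cells, and at 0.109 to 0.531 and 6.33 to 21.9 CPM in A17.2 cells. Its log2 changes were 5.25 ± 0.91 and 5.43 ± 0.89. Ido2, the related enzyme, rose by 2.50 ± 0.44 and 4.46 ± 0.49 and was lower in unstimulated A17.2 than control cells (-2.11 ± 0.47, adjusted p = 0.0222), the opposite direction to Wars. Ccbl2 (also named Kyat3) and Kyat1 encode kynurenine aminotransferases: Ccbl2 rose by 0.71 ± 0.15 and 0.65 ± 0.15, and Kyat1 was higher in A17.2 cells (0.92 ± 0.23 and 1.13 ± 0.23). With the block, 3 of the 5 were called higher in stimulated A17.2 against control cells (18% of all genes). The cytokine response of Ido2 was called larger in A17.2 cells only with the block (adjusted p = 0.00718, kept in 2 of 3 fits that left out a number).

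In edgeR fitted to all 12 libraries, cytosolic members other than Wars were called only with the replicate block. With the block, 6 of 36 members were called with cytokines in control cells and 4 of 36 in A17.2 cells, against 19.6% and 17.8% of all genes. All of these members were higher, and 10.5% and 10.7% of all genes were called in that direction. Kars encodes lysyl-tRNA synthetase, a member of the multisynthetase complex. It was at 371, 423 and 481 CPM in unstimulated and 602, 658 and 744 CPM in stimulated control cells. A17.2 libraries had 290, 401 and 406 CPM without and 442, 637 and 625 CPM with cytokines. Stimulated libraries lay above all unstimulated ones in either line, and the fold changes were 1.57 (log2 0.65 ± 0.20, adjusted p = 0.131, with the block 0.00013) and 1.55 (0.64 ± 0.20, 0.127, with the block 0.000157). The call with the block held when any 1 replicate number was left out. DESeq2 without the block called both changes (adjusted p = 0.044 in control and 0.0403 in A17.2 cells). The other 7 synthetases of the complex (Dars, Eprs, Iars, Lars, Mars, Qars and Rars) were not called in any comparison by either model.

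Farsa, the catalytic α subunit of cytosolic phenylalanyl-tRNA synthetase, was at 161, 176 and 161 CPM in unstimulated and 210, 223 and 225 CPM in stimulated control cells. A17.2 libraries had 146, 181 and 160 CPM without and 189, 217 and 199 CPM with cytokines. The groups did not overlap in either line, and the log2 changes were 0.40 ± 0.12 (adjusted p = 0.15, with the block 0.00221) and 0.31 ± 0.12 (0.316, with the block 0.0137). Leaving out a replicate number kept the block call in 2 of 3 fits in control cells (adjusted p up to 0.0658) and in 1 of 3 in A17.2 cells (up to 0.131), and DESeq2 without the block called the change in control cells (adjusted p = 0.0192). Farsb, the β subunit of the same enzyme, was not called: it was at 110 to 138 CPM in unstimulated control cells and 126 to 151 CPM after cytokines. Vars, valyl-tRNA synthetase, was at 493, 640 and 939 CPM in unstimulated and 614, 947 and 1162 CPM in stimulated control cells. These groups overlap, while each numbered pair was higher with cytokines, by 0.39 ± 0.34 on the log2 scale (adjusted p = 0.824, with the block 0.0109). In A17.2 cells the Vars change was 0.33 ± 0.34 (0.906, with the block 0.0318), and in both lines the block call was kept in only 1 of 3 fits that left out a replicate number.

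Yars encodes tyrosyl-tRNA synthetase. It was at 234, 239 and 282 CPM in unstimulated and 283, 289 and 378 CPM in stimulated control cells, and at 294, 362 and 381 CPM in unstimulated and 300, 405 and 420 CPM in stimulated A17.2 cells. The change with cytokines was 0.33 ± 0.18 in control cells (adjusted p = 0.577, with the block 0.0268), and the block call was kept in 1 of 3 fits that left out a number (adjusted p up to 0.232). Unstimulated A17.2 cells lay above unstimulated control cells (0.46 ± 0.18, adjusted p = 0.193, with the block 0.00201), and that block call held without any 1 replicate number. Exons of Yars share 30 bases with C77080 on the other strand. Whether reads were counted by strand is not given in the sources used here.

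**Figure D3:**
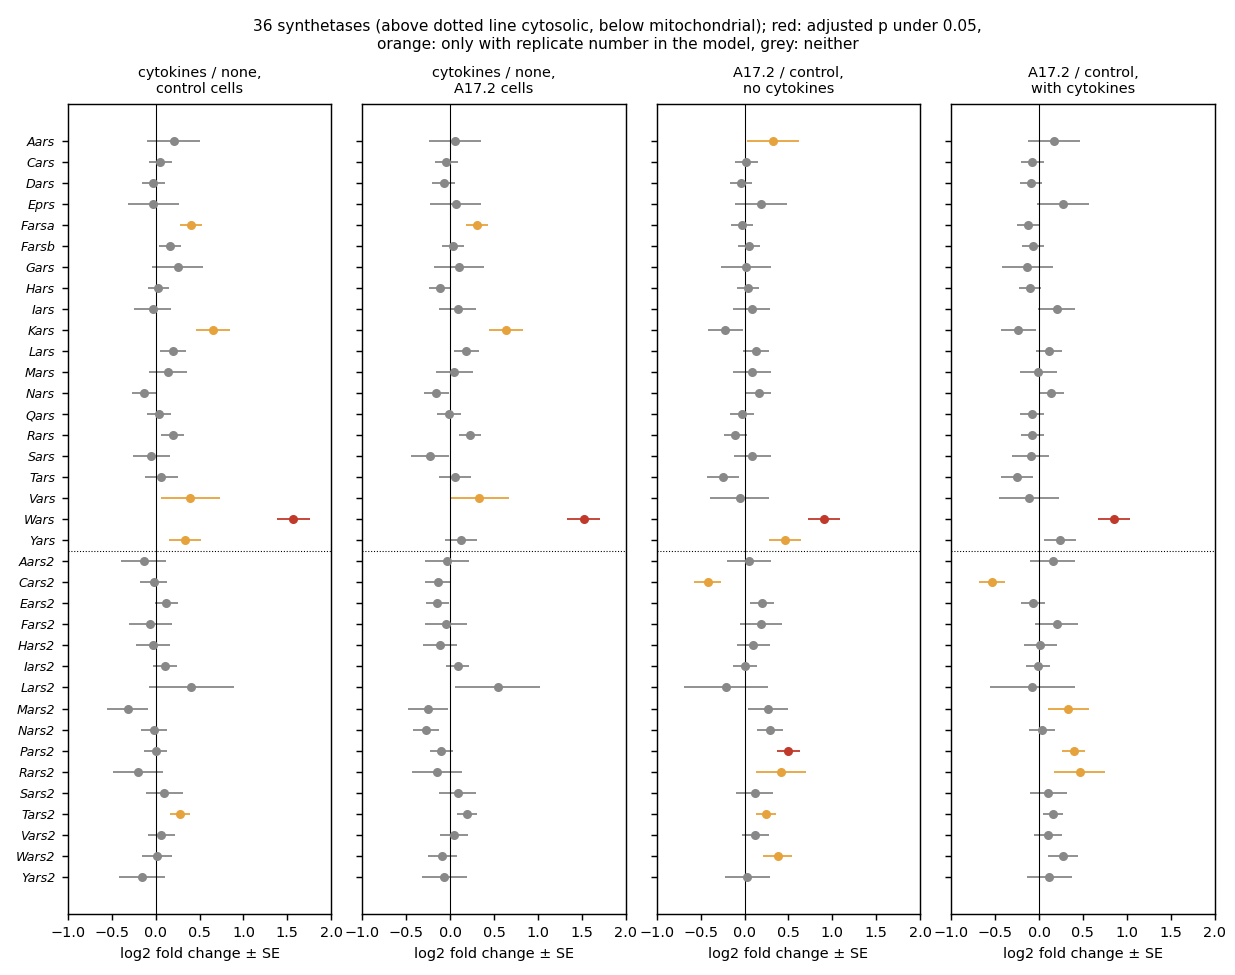
Log2 fold change ± SE (horizontal axes) of all 36 members in 4 comparisons, cytosolic members above the dotted line and mitochondrial members below it. Red points were called without the block, orange points only with it and grey points by neither; Wars is red in all 4 panels, Pars2 is red in A17.2 against control cells without cytokines, and no other point is red.

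Between A17.2 and control cells, few members were called without the block. Without cytokines 2 of 36 members were called, Wars and Pars2, both higher, against 6.2% of all tested genes (2.76% called higher). With cytokines it was 1 of 36, Wars, against 6.57% (3.05% called higher). With the block, 8 of 36 (7 higher, 1 lower) and 5 of 36 (4 higher, 1 lower) were called, against 33.5% and 37.1% of all genes. Of all genes, 16% and 18% were called higher and 17.5% and 19.1% lower with the block. The median of the 16 mitochondrial members was 0.15 without and 0.11 with cytokines, and that of the 19 cytosolic members other than Wars was 0.04 and -0.08, beside -0.01 and 0.02 over all genes.

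Pars2, the mitochondrial prolyl-tRNA synthetase, was at 12.5, 12.9 and 11.97 CPM in unstimulated control and 17.4, 18.2 and 17.1 CPM in unstimulated A17.2 cells. With cytokines it was at 11.7, 13.5 and 12.2 CPM and 16.98, 16.8 and 15.4 CPM. All 6 A17.2 libraries lay above all 6 control libraries. The log2 difference was 0.50 ± 0.13 without cytokines (adjusted p = 0.043, with the block 0.00142) and 0.40 ± 0.13 with cytokines (0.0975, with the block 0.00739, kept in 1 of 3 fits that left out a number). Without cytokines the call of the model without the block was lost when any 1 of the 6 libraries was left out (adjusted p 0.0938 to 0.135).

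Cars2, the mitochondrial cysteinyl-tRNA synthetase, was the only member called lower by edgeR. DESeq2 with the block also called Kars lower in A17.2 against control cells (edgeR log2 differences of -0.22 and -0.23 without the block, DESeq2 adjusted p = 0.0344 and 0.022). Cars2 was at 36.7, 36.1 and 31.5 CPM in unstimulated control and 27.0, 29.6 and 21.3 CPM in unstimulated A17.2 cells. With cytokines it was at 35.0, 36.6 and 31.1 CPM and 22.6, 25.7 and 22.5 CPM. The groups did not overlap, and the log2 differences were -0.42 ± 0.15 (adjusted p = 0.143, with the block 0.00227) and -0.54 ± 0.15 (0.058, with the block 0.000393). Exons of Cars2 share 422 bases, 5.83% of their length, with Naxd on the other strand.

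Rars2, the mitochondrial arginyl-tRNA synthetase, which is mutated in a form of pontocerebellar hypoplasia in humans, was at 39.9, 26.9 and 22.2 CPM in unstimulated control and 49.97, 38.3 and 30.2 CPM in unstimulated A17.2 cells. With cytokines it was at 34.1, 23.2 and 20.3 CPM and 44.5, 34.9 and 27.2 CPM. The groups overlap, replicate 1 was the highest in each, and every numbered pair was higher in A17.2 cells, by 0.41 ± 0.29 (adjusted p = 0.526, with the block 0.00141) and 0.46 ± 0.29 (0.42, with the block 0.000674). Tars2 (mitochondrial threonyl-tRNA synthetase), Wars2 (mitochondrial tryptophanyl-tRNA synthetase) and Aars (cytosolic alanyl-tRNA synthetase) were called higher in unstimulated A17.2 cells only with the block, by 0.25, 0.38 and 0.32 on the log2 scale, and each of these calls was lost whichever replicate number was left out. Mars2 (mitochondrial methionyl-tRNA synthetase) was called higher with cytokines in A17.2 cells against control (0.33, with the block adjusted p = 0.0405), a call kept in 1 of 3 fits that left out a number. Tars2 was also called higher with cytokines in control cells (0.28 ± 0.11, with the block adjusted p = 0.0237), at 117, 112 and 119 CPM without and 146, 129 and 148 CPM with cytokines. This call too was lost whichever replicate number was left out (adjusted p up to 0.179). In that comparison it was the only mitochondrial member called by either edgeR model. Aars shares 1326 exon bases with Exosc6 on the same strand, 14.3% of its exons, so its reads cannot be fully told apart from those of that gene.

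In the order of levels per length Wars moved by more places between groups than any other member, 8 places against at most 5. Scaled to CPM per kb of exon, Gars (207 ± 53.0), Lars2 (198 ± 86.1), Nars (175 ± 4.84), Sars (163 ± 26.2) and Aars (133 ± 34.1) led the order in unstimulated control cells (SD, n = 3), and these neighbours do not differ beyond their SD. Some reads counted for Lars2 may belong to another gene, as described below. Wars was in place 9 with 79.9 ± 13.6 CPM per kb. It moved to place 3 in control cells with cytokines (237 ± 25.6), place 6 in unstimulated A17.2 cells (149 ± 20.2) and place 1 in stimulated A17.2 cells (429 ± 60.5). With the longest transcript in place of all exons, Wars was in place 10 in unstimulated control cells and place 2 in stimulated A17.2 cells, behind Lars2. Mars2 (1.60 ± 0.34) and Wars2 (1.82 ± 0.12) had the lowest levels per kb, and in unstimulated control cells every mitochondrial member but Lars2 lay below every cytosolic one. In stimulated A17.2 cells Tars2 (22.7 CPM per kb) lay above the cytosolic Dars (20.9), the aspartyl-tRNA synthetase.

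**Figure D4:**
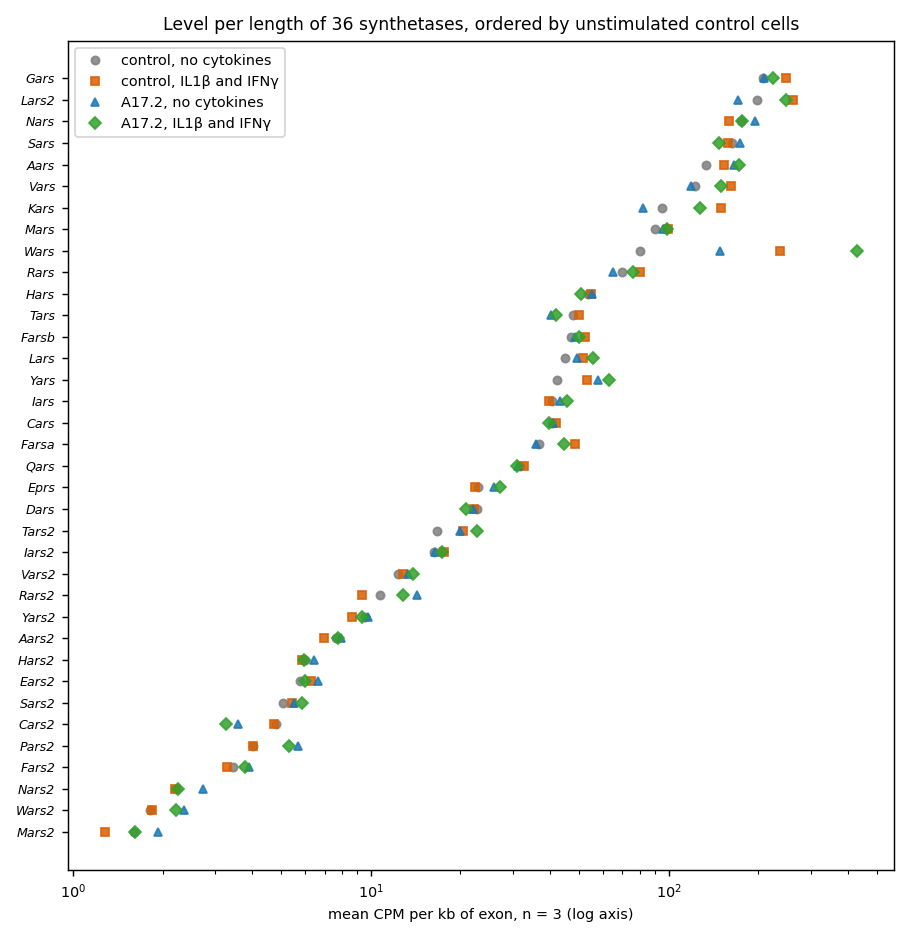
Mean CPM per kb of exon (log axis, n = 3) of the 36 members in the 4 groups, ordered by unstimulated control cells. Wars moves from place 9 (79.9 CPM per kb) to place 1 (429 CPM per kb in stimulated A17.2 cells), while Mars2 stays last at 1.60 in unstimulated control cells.

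Lars2, the mitochondrial leucyl-tRNA synthetase, had the highest mean CPM of all members in each group, and in single libraries only Wars exceeded it, in stimulated A17.2 replicate 1. It was at 1286, 2101 and 3188 CPM in unstimulated control, 1957, 3064 and 3694 in stimulated control, 1347, 1655 and 2677 in unstimulated A17.2 and 1173, 2498 and 4594 CPM in stimulated A17.2 cells. All groups overlap, and neither edgeR model called a comparison. The block gave adjusted p = 0.0537 and 0.0943 for cytokines in control and A17.2 cells, and DESeq2 with the block called both higher (adjusted p = 0.0161 and 0.0386). A Lars2 transcript shares 72 bases at 98.6% identity with Gm15564, so some reads may be counted for the wrong gene. Gm15564 was at 102 to 343 CPM. Gm15564 and Yam1 had both been listed beforehand as rRNA-like rows. Yam1 was at 8644 to 14389 CPM in the replicate 1 libraries and 24294 to 38667 CPM in the others. Their part in the level of Lars2 was not tested.

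Many members followed the replicate number. Replicate 1 was the lowest library in all 4 groups for 13 of 36 members (25.1% of all genes), among them Aars, Eprs, Gars and Vars. Of the 20 cytosolic members 9 were lowest in replicate 1 everywhere and 0 were highest there, against 26% of all genes. Replicate 3 was highest in all 4 groups for 10 of the 20 (15.5% of all genes). Of the 16 mitochondrial members 4 (Ears2, Fars2, Iars2 and Lars2) were lowest in replicate 1 of every group and 4 (Aars2, Rars2, Sars2 and Yars2) were highest there, 25% each, close to the shares of all genes. Replicate 3 was the lowest library of every group for 5 of the 16 (31.2%, against 11.7% of all genes). It was the highest for 5 of the 16 (31.2%, against 15.5% of all genes). The labels do not say what the replicate numbers stand for beyond biological replicates.

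**Figure D5:**
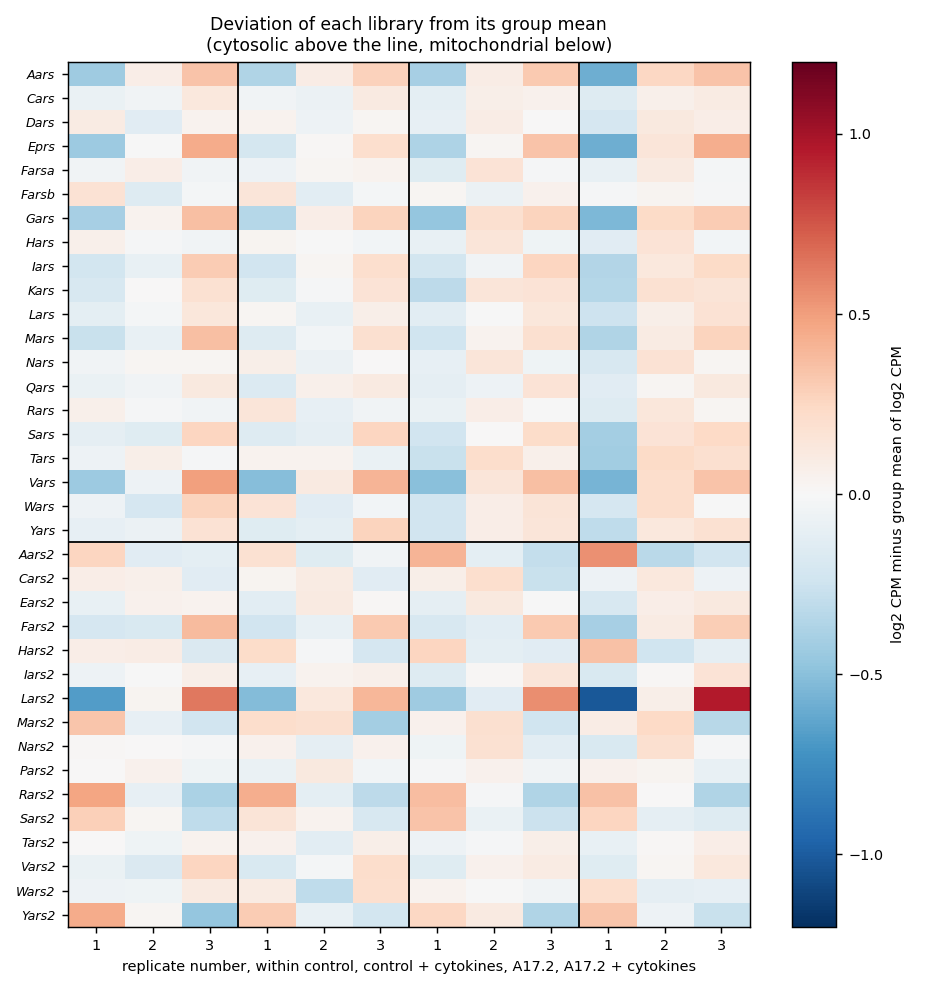
Log2 CPM of each library minus the mean log2 CPM of its group (colour), for 36 members (rows) and 12 libraries (columns, 3 per group). Blue is below and red above the group mean. Replicate 1 is the lowest library of every group for 9 of 20 cytosolic members, while it is the highest for Aars2, Rars2, Sars2 and Yars2.

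Of the wider amino acid response, 1 to 4 genes were called in each comparison of groups without the block. Of 34 listed targets of that pathway 31 were tested. In control and in A17.2 cells, 1 was called higher with cytokines (3.09% and 3.76% of all genes), Slc7a11, the cystine transporter (1.06 ± 0.19 and 1.10 ± 0.19), and in A17.2 cells Ddit4 was called lower (-1.07 ± 0.16, adjusted p = 0.0019). Medians were -0.02 and -0.11, beside -0.04 and -0.05 over all genes. Atf4 was at 984 to 1070 CPM in all 6 control libraries and 741 to 1029 CPM in A17.2 cells, and it, Asns (asparagine synthetase), Trib3 and Ddit3 were not called without the block. With the block Atf4 was lower in stimulated A17.2 against control cells (-0.29, adjusted p = 0.0325), while Ddit3, which shares 68 exon bases with Mars on the other strand, was higher in unstimulated A17.2 cells (0.55, adjusted p = 0.0039) and fell by 0.69 with cytokines there (adjusted p = 0.00113). Between A17.2 and control cells 1 was called higher without cytokines (2.76% of all genes), and 3 were called higher and 1 lower with them (6.57% of all genes called, 3.05% higher). Jdp2 was called higher without cytokines (0.63 ± 0.11) and with them (0.46 ± 0.11), as were Slc6a9 (0.67 ± 0.16) and Ppp1r15a (0.89 ± 0.23) with cytokines, and Ddit4 was lower there (-0.69 ± 0.16). With the block, 10 of the 31 were called higher and 2 lower in A17.2 against control cells in either state, against 16% and 18% of all genes higher and 17.5% and 19.1% lower. With cytokines 2 were called higher in either line (10.5% and 10.7% of all genes), and 3 were called lower in control and 4 in A17.2 cells. Of all 15649 genes, 1420 in control and 1110 in A17.2 cells were called lower there. The 12 synthetases listed as targets of this response had medians of 0.10 and 0.06 with cytokines, and Wars was the only one called without the block.

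Of the kinases that phosphorylate eIF2α, Eif2ak2, the interferon-inducible PKR, rose with cytokines by 1.04 ± 0.20 in control (adjusted p = 0.0113) and 1.65 ± 0.20 in A17.2 cells (adjusted p = 0.000375). The other 3, including the tRNA-sensing Eif2ak4, were not called without the block. With it, Eif2ak1 was higher with cytokines in both lines (0.37 and 0.51, adjusted p = 0.008 and 0.000647), and Eif2ak2 was lower in unstimulated A17.2 against control cells (-0.58, adjusted p = 0.00156). The scaffolds Aimp1, Aimp2 and Eef1e1 were not called without the block either. With it, Aimp1 was lower with cytokines in control cells (-0.26, adjusted p = 0.0351), and Aimp2 was lower in A17.2 cells without and with cytokines (-0.34 and -0.40, adjusted p = 0.0146 and 0.00525). Of 6 tRNA editing and related factors, Osgep was called lower in stimulated A17.2 against control cells (-0.82 ± 0.21, adjusted p = 0.043), where 6.57% of all genes were called. With the block 1 of the 6 was called higher and 1 lower without cytokines and 2 lower with them, against 33.5% and 37.1% of all genes called. In A17.2 cells the block called 1 of the 6 lower with cytokines (17.8% of all genes called). None of 4 tested elongation factor 1 genes, 4 genes of mitochondrial glutaminyl-tRNA amidation and formylation and 16 mitochondrial ribosomal protein genes was called in any comparison without the block. With it, 4 of the ribosomal protein genes were called higher and 1 lower in A17.2 against control cells in either state (16% and 18% of all genes higher, 17.5% and 19.1% lower), and 1, Mrpl12, was lower with cytokines in each line. Of the 4 elongation factor 1 genes, the block called 2 higher in A17.2 cells without cytokines and 2 higher and 1 lower with them. Of all genes, 33.5% and 37.1% were called in these comparisons.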

How the data were processed

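The authors deposited a table of raw read counts per gene for 12 libraries (Ion Total RNA-Seq Kit v2, poly(A) RNA), with reads placed on mm10 per the submitters' notes. Which aligner and counter were used, and whether strand was taken into account, is not given in the sources used here. The raw file of 1 library (stimulated control, replicate 1) is noted as corrupted, but its counts are in the table. Deposited tables of the authors' own comparisons (fold changes and p-values) were not used. Counts were tested with edgeR 4.0.16 (R 4.3.3; filterByExpr, TMM, robust quasi-likelihood fit over all 4 groups, Benjamini-Hochberg over 15649 genes; 10997 of 43271 genes had no read). DESeq2 1.42.0, other filters and scalings, the groups compared alone, a replicate block and fits without 1 library were alternatives. Both edgeR models were run on simulated counts for the cytokine comparison in control cells. An effect shared by libraries of the same number was built into those counts, so that run cannot decide whether the block suits these data. Same-numbered libraries deviated together from their group means in all 18 pairs (correlation 0.309 to 0.85, against -0.751 to 0.455 for 36 pairs of different number), so the block is printed where it changes a call. Replicates of a group differed beyond sampling noise (chi-square of 21.7 to 250.3 for each degree of freedom). Nothing states that replicates were separate cultures beyond the label, so p-values measure the spread between these samples. Library totals are of reads without molecular identifiers. Positions, lengths and overlaps came from GENCODE M21 (GRCm38), shared sequence from blastn 2.17.0+, promoters from RefSeq GRCm38.p6. Members, lists and tests were chosen with earlier results of these data known. All members called in any comparison by edgeR without or with the block are named, with each list's genes of lowest adjusted p and a fixed set (Atf4, Asns, Trib3, Ddit3, Ido1, Irf1, Aimp1, Aimp2, Eef1e1). Calls made by DESeq2 alone are not all described. Among them, DESeq2 with the block called Gars higher with cytokines in control cells (adjusted p = 0.0154, edgeR log2 change 0.25 without the block). The motif windows of Aars, Gars, Iars and Tars were chosen after values were seen. A few items are not reported here.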

Additional observations from a re-analysis of the deposited data

Results flagged for a closer look

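Groups of 3 libraries were not tested for single outlying samples. The cytokine responses of Cars, Hars and Ears2 went up in 3 of 3 numbered pairs in control cells and down in 3 of 3 in A17.2 cells. These members were picked for this pattern, and no count over all genes is given to set beside them. Their exons share 211, 195 and 89 bases with Gm15580, Hars2 and Ubfd1 on the other strand. The difference of responses (A17.2 minus control, log2) was -0.10 for Cars, -0.15 for Hars and -0.27 for Ears2. In edgeR's test of that difference none was called (adjusted p = 1.00 for each), and with the replicate block the adjusted p-values were 0.826, 0.735 and 0.513.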

How the results depend on the processing

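The numbers of members called were 2 and 1 for A17.2 against control cells without and with cytokines, 1 and 1 for cytokines in control and A17.2 cells, and 0 for the difference of responses, which stayed 0 under every alternative run. With the replicate block they were 8, 5, 6 and 4, with 6, 6, 6 and 6 when replicate 1 was left out of it in all groups, 5, 4, 3 and 2 without replicate 2 and 5, 3, 2 and 2 without replicate 3. DESeq2 with the block gave 9, 7, 8 and 5, and DESeq2 without it gave 3 for stimulated A17.2 against control cells, 3 for cytokines in control and 2 in A17.2 cells. Without a filter on low counts 1 member was called between unstimulated A17.2 and control cells, and with only the groups compared 0 were called between A17.2 and control cells in either state. Leaving out single libraries gave 0 to 1 members for A17.2 against control cells without cytokines (0 without A17.2 replicate 2 or 3 or control replicate 2), 0 to 1 with cytokines (0 without replicate 2 or 3 of either line), and 1 to 2 for cytokines in A17.2 cells (2 without stimulated replicate 1). The difference of Wars responses ranged from -0.191 to 0.0476 without single libraries and was 0.0921 with the block without replicate 1, so its sign is not settled. DESeq2's size factors and the floor of 50 counts changed no call of a named member, and the rise of Wars with cytokines was called under every alternative. The cause of these changes was not tested.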
